A study of Mus musculus with 80 samples.

Results

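Chromatin immunoprecipitation sequencing (ChIP-Seq) with an antibody to the retinoid X receptors (RXR) was read here at 9 genes that carry the metabolic work of the hepatocyte: Fabp1, Pck1, Ass1, Cps1, Arg1, G6pc, Fbp1, Tat and Lipc. They were 9 of 21938 protein-coding genes. The genes were chosen on the peak calls of these same libraries, so whether a peak lay in a gene was a description and was given no test. Each gene was taken with 5 kb upstream and 1 kb downstream (GENCODE release M21, mm10), 433.726 kb in all, and every called peak that overlapped such a window was kept. The 40 libraries held 589904 peaks, of which 108 lay in the 9 windows. Overlapping peaks of all libraries were merged into sites, which gave 40 sites in the windows. Of these, 26 were called in 1 liver and 5 were recurrent, meaning that they were called in at least 3 of 5 livers of a group.

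RXR pairs with other nuclear receptors, among them PPARγ and PPARα, and such pairs bind DNA at direct repeats of a short half-site. Pioglitazone (Pio) is a PPARγ agonist. PPARγ is low in healthy hepatocytes and rises in fatty liver, while PPARα is the main PPAR of the hepatocyte. Of the genes described here, Fabp1 encodes the liver fatty acid binding protein, a carrier of fatty acids in the cytosol and a textbook PPAR target. Lipc encodes hepatic lipase, which hydrolyses lipids of circulating lipoproteins. Pck1 (phosphoenolpyruvate carboxykinase), Fbp1 (fructose bisphosphatase) and G6pc (the catalytic subunit of glucose-6-phosphatase) encode enzymes of gluconeogenesis. Cps1 (carbamoyl phosphate synthetase), Ass1 (argininosuccinate synthetase) and Arg1 (arginase) belong to the urea cycle, and Tat (tyrosine aminotransferase) opens tyrosine breakdown.

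The livers came from male mice, 5 months old, that had been on their diet for 12 weeks. The 8 groups of 5 livers were wild type (WT, C57BL6/J) and PPARγ knockout (KO) mice on control diet (Control), control diet with Pio (Pio), high fat diet (HFD) or high fat diet with Pio (HFD-Pio). In KO mice, floxed PPARγ was deleted by Cre driven from the albumin promoter, which is active in hepatocytes, so other liver cells kept the gene. The WT mice were purchased and not described as littermates, and the labels of 15 KO libraries (KO Pio, KO HFD and KO HFD-Pio) named no antibody although their titles named RXR. No value of the peak lists checked the deletion of PPARγ. Whole liver was used, so binding in fewer cells and weaker binding per cell cannot be told apart.

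Depth and peak calling differed between the genotypes. WT libraries kept 2035170 to 4256749 ChIP tags and KO libraries 627698 to 1057899. Calling used a p cutoff (0.001) for WT livers and a q cutoff (0.05) for KO livers, so WT and KO could not be tested against each other. In 6 WT libraries (WT Pio 2, 3 and 5 and WT HFD-Pio 1, 4 and 5) the fragment length estimated by the peak caller was under 50 bp, and these libraries stood apart throughout. They are called short-fragment libraries below. All 6 were Pio-treated, so results that come from them alone could not be told apart from their library type. The neural and intestinal marker lists did not follow the tissue label. A recurrent site lay in 7 or 8 of 10 neural marker genes in each KO group and in 2 of 10 in WT Pio and WT HFD-Pio, and in 4 of 10 intestinal epithelial markers in WT Pio and WT HFD-Pio but in 0 of 10 in each KO group. Of 9 hepatocyte markers, 1 (Ttr) had a recurrent site in each KO group and none did in any WT group. Kupffer cell and endothelial markers had 0 of 6 and 0 of 5 in every group. Smooth muscle markers had 3 of 8 in WT Pio and WT HFD-Pio and 2 of 8 in each KO group, cholangiocyte markers 2 of 5 in WT Pio and WT HFD-Pio and at most 1 in KO, and stellate cell markers 1 of 5 in WT Pio and 2 of 5 in WT HFD-Pio and each KO group. Of all protein-coding genes, 10.1% had a recurrent site in WT Pio, 6.08% in WT HFD-Pio, 0.228% in WT Control, 0.141% in WT HFD and 20.6% to 25% in KO. With lists this short, most counts of 0 or 1 lie near these shares, as does the smooth muscle count in KO. The part of these marker genes in the results given here was not tested.

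Sequence at the sites on which the results turn was read from mm10 on the strand of each gene. Upstream of Fabp1, chr6:71199629-71199826 (plus strand, ending at the base before the annotated start of the gene) is shown because it holds a direct repeat with a spacer of 1 base, in capitals. Part of the coding sequence under the recurrent sites of Fabp1 (chr6:71199927-71199993, from the first coding base to the end of exon 1), Pck1 (chr2:173158200-173158320) and Ass1 (chr2:31510115-31510193), all plus strand, is shown because these sites lay on exons. Capitals there mark the 21 bases around the median summit.
Fabp1 upstream: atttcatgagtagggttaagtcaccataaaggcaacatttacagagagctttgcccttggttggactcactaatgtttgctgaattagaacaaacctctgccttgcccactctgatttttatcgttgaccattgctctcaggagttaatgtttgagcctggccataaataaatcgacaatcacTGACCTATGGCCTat
Fabp1 exon 1: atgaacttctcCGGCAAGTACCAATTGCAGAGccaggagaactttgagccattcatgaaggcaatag
Pck1 exon 10: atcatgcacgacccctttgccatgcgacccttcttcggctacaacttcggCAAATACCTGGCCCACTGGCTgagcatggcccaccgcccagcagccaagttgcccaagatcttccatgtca
Ass1 exon 13: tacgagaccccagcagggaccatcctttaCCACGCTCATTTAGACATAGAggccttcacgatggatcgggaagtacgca

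The recurrent sites of G6pc (intron 1) and Lipc (intron 6) lay outside annotated exons. Both overlapped repeat-masked sequence, which made up 41.2% of the G6pc site and 36.6% of the Lipc site.

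The number of genes with a peak was highest in the Pio groups of WT mice. Per WT liver, 4.2 ± 1.92 of the 9 genes had a peak under Pio and 3.8 ± 1.64 under HFD-Pio, compared with 1.4 ± 0.548 under Control and 0.4 ± 0.548 under HFD (mean ± SD, n = 5 each). KO livers ranged from 1 to 2 genes, with 1.6 ± 0.548 in KO Control, 1.2 ± 0.447 in KO Pio, 1.6 ± 0.548 in KO HFD and 1 ± 0 in KO HFD-Pio. The 6 short-fragment livers had 5 or 6 genes each, whereas the other 4 Pio-treated WT livers had 4, 1, 2 and 2. Without the short-fragment libraries the mean was 2.5 ± 2.12 in WT Pio and 2 ± 0 in WT HFD-Pio (n = 2 each).

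**Figure D1:**
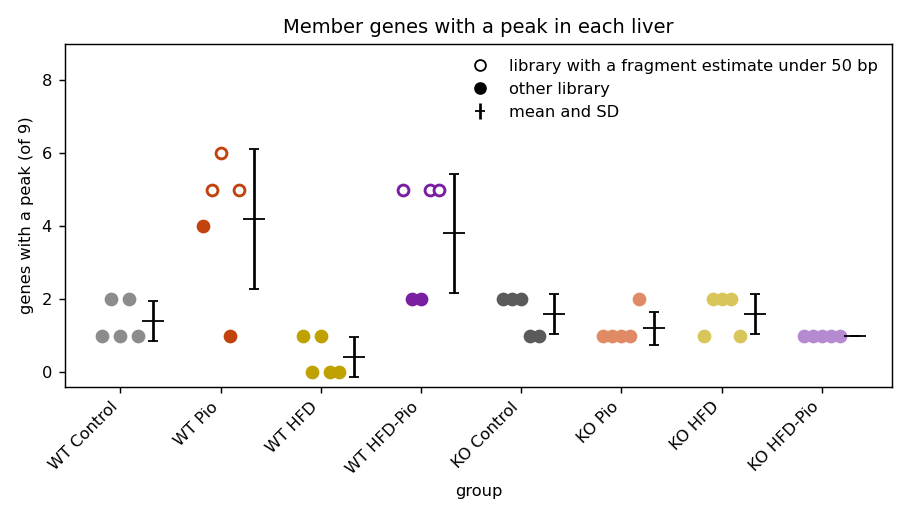
Number of the 9 genes with at least 1 peak in their window (vertical axis) in each liver, by group (horizontal axis), with the group mean and SD beside the points. Open points are the 6 short-fragment libraries, which lie at 5 or 6 genes, and the filled points lie between 0 and 4.

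The same livers held more peaks everywhere. In WT Pio the windows carried 14.8 ± 12.2 peaks per Mb against 5.11 ± 4.48 over the whole genome, and in WT HFD-Pio 14.8 ± 10.5 against 4.37 ± 3.30. The untreated WT groups had the same order at lower values, with 4.61 ± 2.31 against 1.85 ± 1.84 in WT Control and 0.922 ± 1.26 against 0.464 ± 0.182 in WT HFD. In KO the order was turned around, with 2.77 ± 1.03 against 9.0 ± 1.30 in KO Pio and 4.15 ± 1.93 against 6.77 ± 2.63 in KO Control. By group mean the windows thus held more peaks per Mb than the genome in all 4 WT groups and fewer in all 4 KO groups, as values that the choice of genes had used. The comparison is unlike, since the whole genome includes sequence between genes. Peaks per Mb in the windows of all protein-coding genes are not given here, so neither order can be called particular to these genes.

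Read against all protein-coding genes, a recurrent site was found in 3 of 9 genes in WT Pio (Fabp1, Pck1 and Lipc), where 10.1% of all genes had one, and in 4 of 9 in WT HFD-Pio (the same genes and Ass1), where 6.08% did. The WT HFD-Pio count was not stable: it fell to 1 without liver 1, 4 or 5 and to 0 with a −log10 q of at least 5. Where a peak had to cover at least 50% of its site the counts were 0 in WT Pio and 1 in WT HFD-Pio. Sites were merged over all livers, so short-fragment peaks were too narrow to meet this rule at Fabp1, Pck1 and Lipc. The rule therefore could not show whether the counts were stable. In WT Control 1 of 9 (Lipc) had one against 0.228% of all genes, and in WT HFD 0 of 9 against 0.141%. In KO the background was far higher, and the members' shares lay near or under it. Recurrent sites were found in 2 of 9 genes in KO Control and KO HFD (G6pc and Lipc), against 20.6% and 21.8% of all genes, and in 1 of 9 (Lipc) in KO Pio and KO HFD-Pio, against 25% and 23%.

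**Figure D2:**
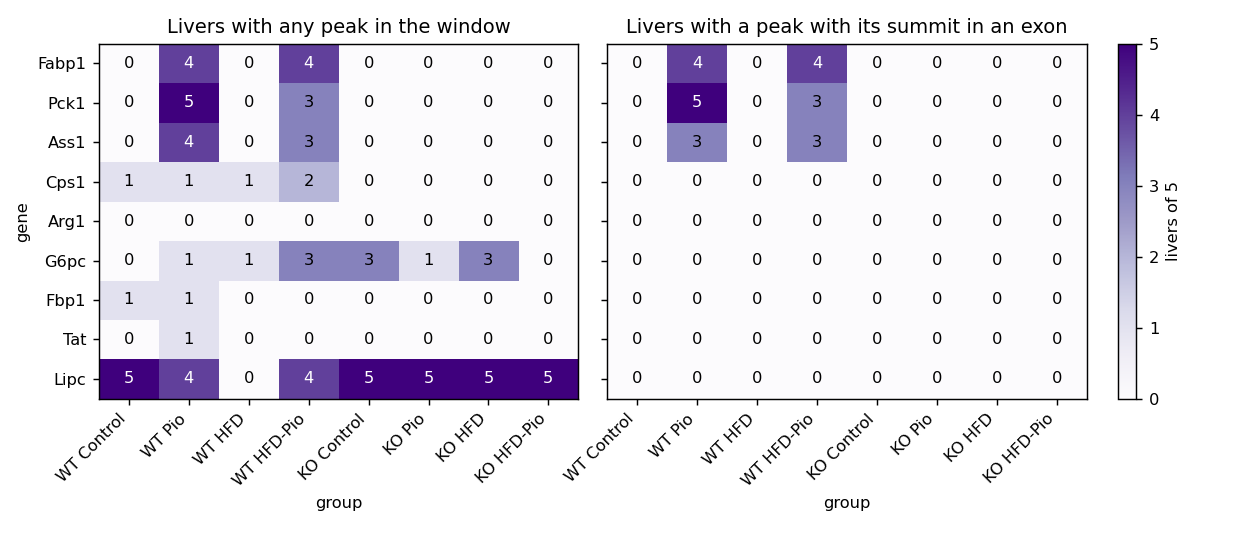
Livers of 5 (shading and digits) with any peak in the window of a gene (left) and with a peak whose summit lay in an exon of that gene (right), by gene and group. Exonic peaks appear in the Fabp1, Pck1 and Ass1 rows under WT Pio and WT HFD-Pio, with 3 to 5 livers each, and every other cell on the right is 0.

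Exonic peaks were called in Pio-treated WT livers and in no other group. Of 76 WT peaks, 39 had their summit in a coding exon, 1 in a 5′ UTR, 33 in an intron and 3 upstream. WT Control had 0 exonic peaks of 10 and WT HFD 0 of 2. All 32 KO peaks were intronic, 25 of them in Lipc and 7 in G6pc. The 40 exonic peaks came from WT Pio and WT HFD-Pio, 20 in each group, and from Fabp1 (15), Pck1 (18) and Ass1 (7). The exonic share of a liver's peaks was 66.8% ± 19.5 in WT Pio and 56.0% ± 17.9 in WT HFD-Pio (SD, n = 5 each), and was 0 in every other liver with a peak. Short-fragment libraries gave 35 of the 40. Their exonic peaks were 45 to 203 bp wide and all 35 lay wholly within exons. Of the 5 exonic peaks from other libraries, 3 lay at Fabp1 and crossed an exon edge, and 2 lay at Pck1. Without the short-fragment libraries 2 livers remained in each of these groups, too few for a site to be recurrent, and exonic peaks were called at Fabp1 in WT Pio 1 and WT HFD-Pio 2 and 3 and at Pck1 in WT Pio 1 and 4.

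An exonic recurrent site was found in 2 of 9 genes in WT Pio and 3 of 9 in WT HFD-Pio, against 5.5% and 3.25% of all protein-coding genes. In WT Control and WT HFD 0 of 9 had one, against 0.0365% and 0.0137%. In the KO groups 0 of 9 had one as well, against 15.6% (KO Control), 19.7% (KO Pio), 16.8% (KO HFD) and 17.9% (KO HFD-Pio) of all genes. With only 9 genes, a count of 0 lies near these shares.

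Fabp1 was called in 8 livers, 4 of WT Pio and 4 of WT HFD-Pio, and in no untreated and no KO liver. Its recurrent site, chr6:71199780-71200092, spans the start of the gene at base 71199827 and exon 1. Fold enrichment over input in WT Pio was 4.32 in liver 1, 8.64 in liver 2, 9.40 in liver 3 and 7.76 in liver 5, with no peak in liver 4. In WT HFD-Pio it was 4.33 in liver 1, 5.98 in liver 2, 5.55 in liver 3 and 11.2 in liver 4, with no peak in liver 5. The ranges of the 2 groups overlapped. The mean over the 8 livers was 7.15 ± 2.51 (SD). The 5 short-fragment livers had peaks of 48 to 65 bp with summits between 71199947 and 71199951, inside the coding sequence printed above. The other 3 (WT Pio 1 and WT HFD-Pio 2 and 3) had peaks of 187 to 297 bp that began upstream of the gene, with summits in exon 1.

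The sequence upstream of Fabp1 held a close direct repeat. Both copies of the half-site AGGTCA, on the minus strand with a spacer of 1 base, matched with 1 mismatch in 12 bases at chr6:71199812-71199824. The 3 peaks of the longer-fragment livers covered it, and the 5 short-fragment peaks began at least 95 bp beyond it. The repeat began 67 bases before the RefSeq start of Fabp1, which lies downstream of the GENCODE start used here. Allowing up to 2 mismatches on both strands, 3.86% of 32851 RefSeq promoters of 300 bases (GRCm38.p6) held such a repeat. Of the 9 genes 7 had promoters in that table, 8 promoters in all, and 2 of these held a repeat. The other was a Lipc promoter with 2 mismatches (chr9:70934818-70934830). It lies inside the annotated gene, just upstream of the start of the Lipc transcript used here for positions.

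Fabp1 had 4 further sites. Exon 4 (chr6:71204904-71204958) was called in 3 short-fragment livers at 8.35 to 10.5-fold, exon 2 in 3 livers at 4.03 to 5.71-fold, and exon 3 and intron 2 in 1 liver each, at 3.71 and 2.78-fold. The intron 2 peak rested on 2 tags. All 4 exons of the gene therefore held a peak in at least 1 Pio-treated WT liver.

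Pck1, which commits oxaloacetate to glucose production, was called in 5 of 5 livers of WT Pio and 3 of 5 of WT HFD-Pio, and in no other liver. All 18 of its peaks were exonic. At the recurrent site in the last exon, exon 10 (chr2:173158138-173158574), WT Pio livers 1 to 5 had fold enrichments of 7.05, 9.12, 10.02, 3.97 and 6.57. WT HFD-Pio livers 1, 4 and 5, all short-fragment libraries, had 7.5, 7.21 and 5.49, all within the range of WT Pio. The lowest value, in WT Pio 4, came from 5 tags and a peak of 437 bp, and this liver had no other peak in the 9 windows. The other 5 sites of Pck1 lay on exons 3, 4, 5, 6 and 8, each called in 1 to 4 livers. Of these exon 3 (chr2:173153980-173154117) was called in 2 livers of each Pio-treated WT group at 5.47 to 6.57-fold.

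Ass1, the urea cycle enzyme that joins citrulline and aspartate, was called in 4 WT Pio and 3 WT HFD-Pio livers. Its recurrent site in exon 13 (chr2:31510115-31510193) was called in WT Pio 2 at 3.74-fold and in WT HFD-Pio 1, 4 and 5 at 6.56, 6.67 and 3.66-fold, all short-fragment libraries with 3 to 6 tags. No other liver had it. All 79 bases of this site occur a second time in the genome, at 100% identity, in the processed pseudogene Gm5424 (chr10:62071966-62072044). The copy was called in 8 livers, including all 4 with the Ass1 site, so tags of the gene and the pseudogene could not be told apart here. Further Ass1 sites lay on exon 3 (2 livers, 3.64 and 4.69-fold) and around exon 4 (2 livers, 3.04 and 3.75-fold). The recurrent sites of Pck1 and Fabp1 had no other match of at least 40 bases and 90% identity in the genome.

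**Figure D3:**
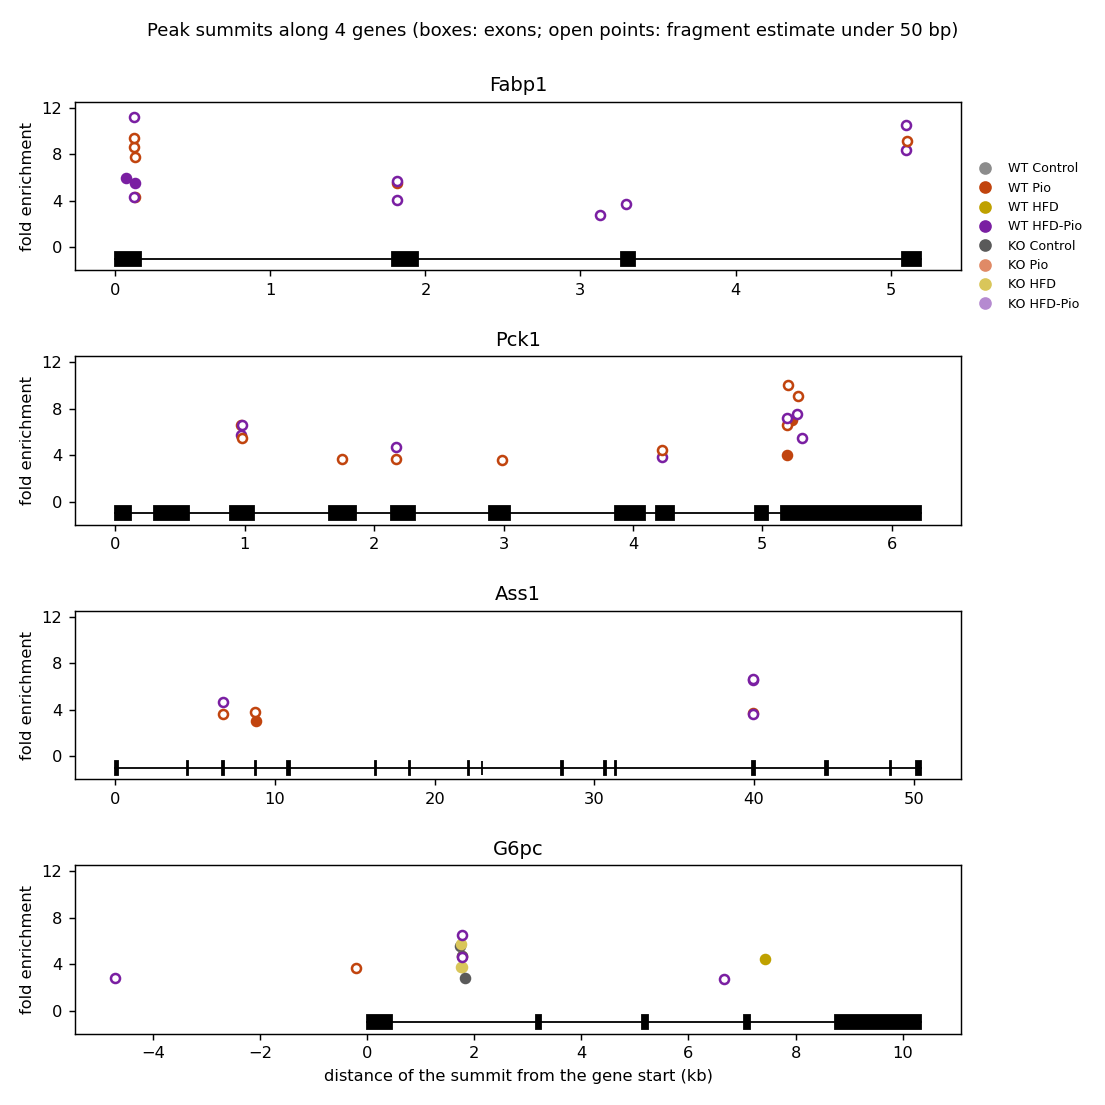
Fold enrichment over input (vertical axis) of every peak of Fabp1, Pck1, Ass1 and G6pc against the distance of its summit from the gene start in kb (horizontal axis), coloured by group, with exons as boxes and short-fragment libraries as open points. Summits of Fabp1, Pck1 and Ass1 stand over exons except 1 in Fabp1 and 1 at the edge of an exon in Ass1, and those of G6pc gather at intron 1.

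G6pc, which releases free glucose in the last step of glucose output, had a peak in 1 WT Pio, 1 WT HFD and 3 WT HFD-Pio livers and in 3 KO Control, 1 KO Pio and 3 KO HFD livers. The site in intron 1 (chr11:101369193-101369483, summit 1776 bp from the start of the gene) was called in KO Control 1, 2 and 3 at 5.58, 4.70 and 2.77-fold, in KO Pio 5 at 4.70-fold, in KO HFD 2, 3 and 4 at 5.76, 3.75 and 3.74-fold, and in no KO HFD-Pio liver. In WT it was called in WT HFD-Pio 1 and 4 at 4.60 and 6.49-fold. These peaks held 2 to 6 tags. Its bases matched 392 other places in the genome at 90% identity or more over at least 40 bases. The remaining 4 G6pc sites were called in 1 liver each, among them a peak at -212 bp from the gene start in WT Pio 3 with 3 tags and 3.64-fold enrichment.

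Lipc was the most widely called of the 9 genes. The site in intron 6 (chr9:70805937-70806480, median summit 128601 bp from the start of the representative transcript) was called in 30 livers: all 20 KO livers, 3 of WT Control, 4 of WT Pio, 3 of WT HFD-Pio and none of WT HFD. In WT Control livers 1, 3 and 5 the fold enrichment was 7.65, 6.46 and 5.67. In WT Pio livers 1, 2, 3 and 5 it was 14.7, 12.6, 15.9 and 14.5, all above the 3 WT Control values. In WT HFD-Pio livers 1, 4 and 5 it was 10.3, 16.2 and 3.98, a range that overlapped both. All 3 WT HFD-Pio values and 3 of the 4 WT Pio values came from short-fragment libraries. WT Pio 1, the exception, had 14.7-fold enrichment with 22 tags over 348 bp.

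In KO Control livers 1 to 5 had fold enrichments of 30.3, 22.7, 19.3, 28.6 and 19.2. In KO Pio they had 10.2, 5.72, 14.05, 11.1 and 20.5, in KO HFD 15.7, 39.8, 20.6, 15.5 and 12.3, and in KO HFD-Pio 15.7, 16.9, 6.67, 8.55 and 4.37. Only KO Pio 5 among the KO Pio livers reached the KO Control range, and KO HFD and KO HFD-Pio overlapped. The group means were 24.0 ± 5.20 in KO Control, 12.3 ± 5.46 in KO Pio, 20.8 ± 11.02 in KO HFD and 10.4 ± 5.58 in KO HFD-Pio (SD, n = 5 each). Among the sites called in all 5 livers of the group, the Lipc site ranked 46 of 2985 by mean fold enrichment in KO Control, 71 of 3545 in KO HFD, 367 of 4925 in KO Pio and 440 of 4210 in KO HFD-Pio. Summits of the 20 KO peaks lay within 60 bp of each other. These peaks held 4 to 43 tags. Fold enrichment largely went with the tag number, from 4.37-fold at 4 tags (KO HFD-Pio 5) to 39.8-fold at 43 tags (KO HFD 2).

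**Figure D4:**
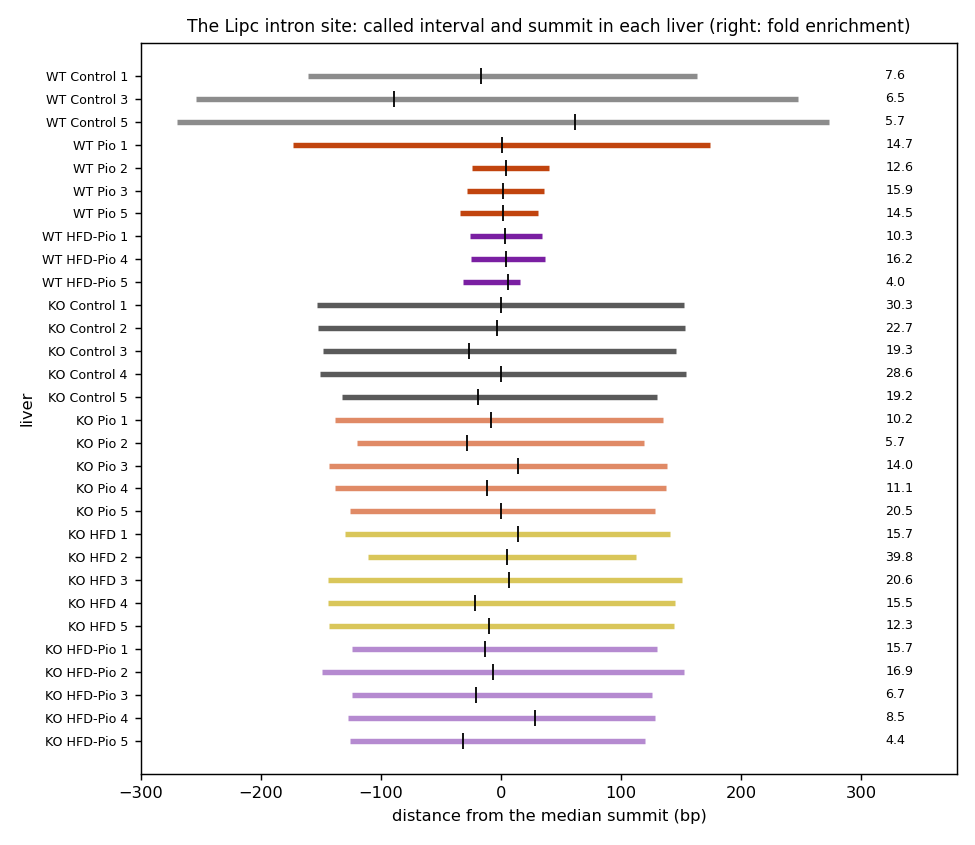
Called interval (bars) and summit (ticks) of each of the 30 livers with a peak at the Lipc intron 6 site, as distance in bp from the median summit, coloured by group, with the fold enrichment at the right. KO intervals are 224 to 306 bp wide and share their centre, and short-fragment WT intervals are 49 to 66 bp.

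The Lipc site was the only site of the 9 genes called in all 10 livers of a pair of groups, so it was the only one that could be tested for a change in strength. Log2 fold enrichment, centred on the median of each liver, was compared with limma over all sites called in all 10 livers. A site was called at an adjusted p under 0.05 with a difference of 2-fold or more. In KO Pio against KO Control the site was lower by a log2 difference of -1.18 (SE 0.271, 95% confidence interval -1.74 to -0.62, limma adjusted p = 0.0491), 1 of 12 sites called among 2508 tested (0.478%), and all 12 were lower. In KO HFD-Pio against KO HFD the log2 difference was -0.99 (SE 0.311, interval -1.62 to -0.35, limma adjusted p = 0.624), with 0% of 2775 sites called and 148 at an unadjusted p below 0.05. In KO HFD against KO Control it was -0.39 (interval -0.93 to 0.16, limma adjusted p = 0.994), and in KO HFD-Pio against KO Pio -0.17 (interval -0.85 to 0.51, limma adjusted p = 0.995). Neither passed, and 0% of 2282 and 0% of 3251 sites were called, with 102 and 177 at an unadjusted p below 0.05.

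The call in KO Pio lay close to its threshold. It was lost with the replicate number as a block (limma adjusted p = 0.0535), with all 20 KO livers in 1 fit (limma adjusted p = 0.309), and when any of 6 livers was left out (KO Pio 1, 2 and 4 and KO Control 1, 2 and 4, limma adjusted p = 0.0697 to 0.20), while the log2 difference stayed between -1.42 and -0.94. Whether the Pio difference depended on diet was not tested. The antibody was named in the labels of KO Control and not in those of KO Pio, and the part of this in the difference was not tested.

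**Figure D5:**
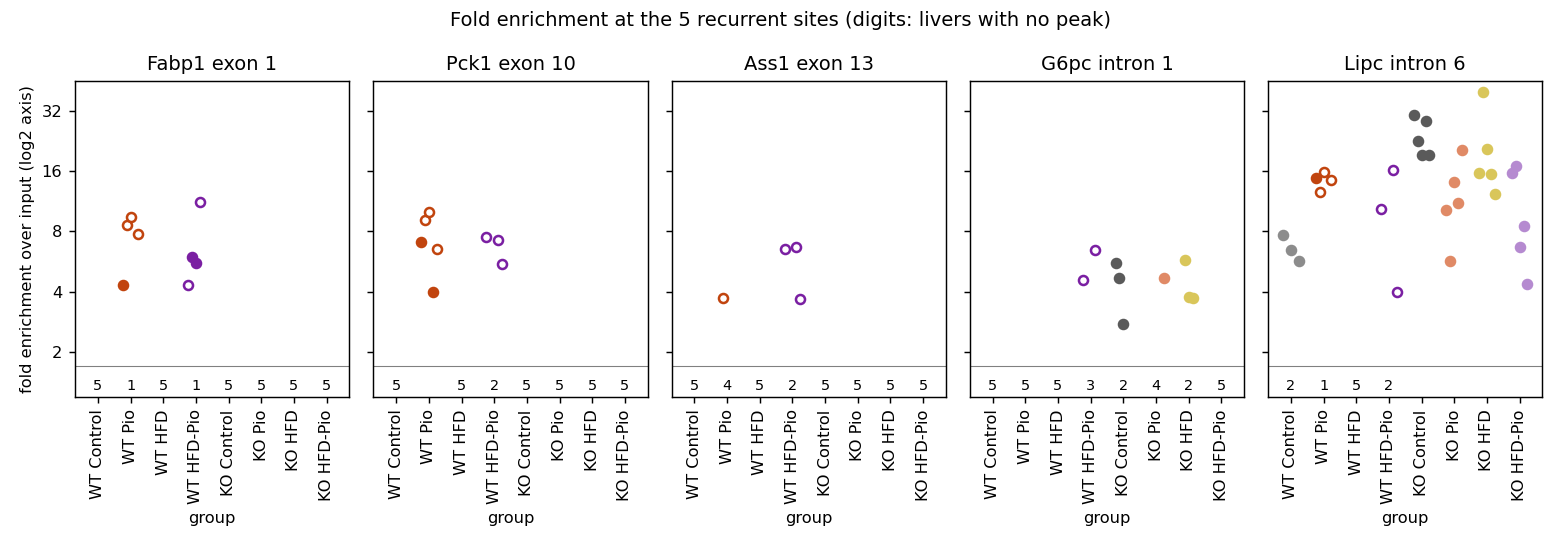
Fold enrichment over input on a log2 axis at the 5 recurrent sites, 1 point per liver with a peak, by group, with the number of livers without a peak in digits under the line and short-fragment libraries as open points. Fabp1, Pck1 and Ass1 have points only in WT Pio and WT HFD-Pio, and Lipc has all 20 KO livers, with KO Control at 19.2 to 30.3 and KO Pio at 5.72 to 20.5.

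What the Lipc site shares with other sequence was read from the genome. Its bases had 223 other matches of at least 40 bases at 90% identity or more, the longest of 56 bases. No direct repeat of AGGTCA with spacers of 0 to 5 bases and up to 2 mismatches was found within 100 bp of the median summit of any of the 5 recurrent sites. Summits of single livers were not searched, and the Fabp1 repeat described above lies nearer to the summit of WT HFD-Pio 2 (71199896) than to the median one. Of all 20109 recurrent sites 12.7% held such a repeat, 2.43% with a spacer of 1 base. A match of letters is no evidence of binding, and its absence says nothing of other elements.

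Lipc held 10 other sites, all called in 1 to 3 livers. A site in intron 1 (chr9:70852993-70853208), which overlaps the pseudogene Gm3436, was called in 2 KO HFD livers and 1 KO HFD-Pio liver at 2.82 to 4.76-fold. WT Control gave 5 of the single-liver sites, at 3.59 to 5.14-fold, spread from intron 5 to upstream of the representative transcript.

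Gains and losses with Pio, counted as a site called in at least 3 of 5 livers of a group and 0 of 5 of the other, were described in the same way. In WT Pio against WT Control 2 of 9 genes gained a site (Fabp1 and Pck1), against 9.85% of all genes, and 0 of 9 lost one (0.0501%). In WT HFD-Pio against WT HFD 4 of 9 gained a site (Fabp1, Pck1, Ass1 and Lipc), against 5.95%, and 0 of 9 lost one (0.00912%). The Pck1, Ass1 and Lipc gains rested on WT HFD-Pio 1, 4 and 5 alone, all short-fragment libraries, so they could not be told apart from the library type. In KO Pio against KO Control 0 of 9 gained (5.26%) and 0 of 9 lost a site (1.15%). In KO HFD-Pio against KO HFD 0 of 9 gained (2.37%) and 1 lost a site, G6pc, against 1.79% of all genes. Peaks at these sites held 8 to 15 tags at Fabp1, 5 to 10 at Pck1, 3 to 6 at Ass1 and 2 to 6 at G6pc. At Lipc those of WT HFD-Pio held 10 to 22. A liver without a call could still carry some tags.

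The other 4 genes had little or nothing. Cps1, the mitochondrial entry enzyme of the urea cycle, had 7 sites in introns, each in 1 liver with 2 to 5 tags, at 2.73 to 4.47-fold. Its strongest was in intron 21 of WT Control 2 (chr1:67193659-67193869, 4.47-fold). Fbp1 had 2 intronic peaks, in WT Control 4 (chr13:62876941-62877221, 9 tags, 7.27-fold) and in WT Pio 2 at 3.74-fold. Tat had 1, in intron 7 in WT Pio 5 (chr8:109995995-109996042, 3.75-fold). None of these 3 genes was called in a KO liver. Arg1, which splits arginine into urea and ornithine, had no peak in any of the 40 libraries. Single-liver peaks of all 9 genes held 2 to 9 tags, with a median of 3.

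The pathways of these genes were read from lists of further genes. Of 8 other urea cycle and ammonia genes, recurrent sites were found in 2 in WT Pio, 1 in WT HFD-Pio and 2 in each KO group. Glul (glutamine synthetase) led with 27 livers at 1 site, and Glud1 (glutamate dehydrogenase) had 21, among them all 20 KO livers. Of 8 other genes of gluconeogenesis and glucose output, 1 had a recurrent site in WT Pio, 1 in WT HFD-Pio and KO Control, and 2 in each other KO group. Pcx (pyruvate carboxylase) was called at 1 site in 16 livers, Slc37a4 (the glucose-6-phosphate transporter) in 12 and Pck2 (the mitochondrial partner of Pck1) in 9. Of 13 other amino acid breakdown genes, 1 had a recurrent site in WT Pio, 0 in WT HFD-Pio and 2 in KO Pio. Of 9 other genes of fatty acid binding and lipolysis, 1 had one in WT Pio and WT HFD-Pio (Pnpla2, adipose triglyceride lipase) and 2 in each KO group (Fabp5 and Fabp7, fatty acid binding proteins of skin and brain). In WT Control and WT HFD none of these lists had a recurrent site. These counts stand beside the 10.1% and 6.08% of all genes in WT Pio and WT HFD-Pio and the 20.6% to 25% in KO.

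In the groups with exonic member peaks, genes of some marker lists had them as well. Exonic recurrent sites lay in 4 of 10 intestinal markers (Lgals4 and Krt20 in most livers) and 3 of 8 smooth muscle markers (Acta2, Tagln and Actg2) in both WT Pio and WT HFD-Pio. This stands beside 2 and 3 of the 9 genes and 5.5% and 3.25% of all genes. Cholangiocyte markers had 2 of 5 in both groups, neural markers 1 of 10 in both, and stellate cell markers 1 and 2 of 5. Hepatocyte markers had 0 of 9 in both groups, and Kupffer cell and endothelial markers had none. In each KO group the exonic sites lay in 7 or 8 of 10 neural markers, 1 of 9 hepatocyte markers and 0 of the 9 genes, beside 15.6% to 19.7% of all genes. Whether these move together for a shared reason was not tested.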

How the data were processed

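RXR ChIP-Seq of 40 mouse livers, each with its own input, was taken from the peak lists the authors deposited. Per the labels and methods, reads were aligned to mm10 with Novoalign and peaks called in each liver against its input with MACS2 2.1.1.20160309, which kept 1 tag per position. The deposited lists give fold enrichment (ChIP over input signal as computed by the peak caller), the pileup signal at the summit in tags, and −log10 p-values and −log10 q-values. At peaks of few tags the fold enrichment largely restated the tag number. In WT Pio 3, for example, 3 tags gave 3.64-fold at Ass1, G6pc and Lipc alike, and 2 tags gave 2.73-fold at Cps1. Low fold enrichments are therefore no separate measure of binding strength. At the Lipc site of the KO livers, with 4 to 43 tags, fold enrichment also largely went with the tag number. The limma test there is thus not separate from the tag number. A second deposited peak file of each liver was not used here. No tag counts outside called peaks were analysed here. The sequences of the G6pc and Lipc sites are not reported here.

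Peaks of all livers overlapping by at least 1 bp were merged into sites (Python 3.11.15, pandas 2.3.3). A gene counted a peak that overlapped its window, and exons were those of GENCODE release 21 for mouse. A protein-coding gene was counted in a group when a site in its window was called in at least 3 of 5 livers. Positions are given for 1 representative transcript a gene. Sites called in all 10 livers of a pair of groups were compared with limma 3.58.1 (trend) on log2 fold enrichment with Benjamini-Hochberg adjustment over all sites tested, a procedure tested on simulated data. Copies were searched with BLAST+ 2.17.0. All 9 genes were named, with sites called in at least 3 of 5 livers of a group and the strongest site outside exons, and at most 3 genes of any other list. The genes and lists were chosen with earlier results of these data known. Alternatives covered the peak threshold, the window, the overlap, the libraries left out, the centring and the replicate block. Livers of a group are separate mice. Same-numbered KO livers did not deviate together (correlations of -0.08 to 0.05).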

Additional observations from a re-analysis of the deposited data

Results flagged for a closer look

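Of 17 sets of values tested for a liver far from the others of its group, 1 stood out. In KO Pio, liver 5 had 2 of the 9 genes with a peak (G6pc and Lipc), and the other 4 livers had 1 each. The whole range of this group was 1 gene. The rule's nominal chance rate of 1 in 20 does not hold for such counts, since 1 liver that differs from 4 equal ones is always flagged.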

How the results depend on the processing

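Of 340 alternative values, 291 kept their direction and, by kind of value, stayed on the same side of the test's threshold, within 1.5 times the count or within the SD between livers, which allows shifts such as 4.2 to 2.5 genes per liver in WT Pio without the short-fragment libraries. Some of the 291 could not have changed, such as the exonic share of 0 in groups without an exonic peak. The total is therefore no measure of stability. With a −log10 q of at least 5, genes with a peak per liver came to 2.2 in WT Pio, 1.8 in WT HFD-Pio, 0.4 in WT Control and 0.8 in KO HFD-Pio, recurrent genes to 0 in WT Control and WT HFD-Pio and 1 in KO Control and KO HFD, and the exonic share to 77.5% in WT HFD-Pio. With a fold enrichment of at least 5, genes per liver came to 2.2 in WT Pio and 0.8 in KO HFD-Pio, recurrent genes to 2 in WT HFD-Pio and 1 in KO Control and KO HFD, and the exonic share to 91% in WT HFD-Pio. Where a peak had to cover at least 50% of its site, recurrent genes were 0 in WT Pio and KO HFD-Pio and 1 in WT HFD-Pio. This rule turned on peak width, since sites were merged over all livers. The Lipc site spanned 544 bp, against 49 to 66 bp for its short-fragment peaks. Without the short-fragment libraries WT HFD-Pio had 2 genes per liver. The window without flanks and the summit rule moved none of these.

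Leaving out 1 liver at a time, with at least 3 of the other 4 required, gave 0 to 1 recurrent genes in WT Control (0 without liver 1, 3 or 5), 1 to 4 in WT HFD-Pio (1 without liver 1, 4 or 5), 1 to 2 in KO Control (1 without liver 1, 2 or 3) and 1 to 2 in KO HFD (1 without liver 2, 3 or 4). Under this rule a site called in exactly 3 livers is always lost when 1 of them is left out. The limma call at Lipc in KO Pio against KO Control ranged from 0 to 1 sites. It fell to 0 sites with the replicate block and with all 20 KO livers in 1 fit. The replicate block changed no other call, and same-numbered livers share only a number. At Lipc in KO HFD-Pio against KO Pio the log2 difference turned from -0.17 to between -0.44 and 0.059, above 0 without KO HFD-Pio 5 (0.059) or KO Pio 5 (0.027). With a −log10 q of at least 5 the Lipc site was tested in KO HFD against KO Control only. The causes were not tested. Depth limits the KO values: at 627698 to 1057899 tags a site of 2 or 3 tags was already a call, and a missing call is no absence of binding. Calls on 2 or 3 tags were made in WT libraries as well. Despite their lower depth, KO libraries held a median of 22563 peaks, against 3465.5 in WT.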
